A study of Homo sapiens with 2 samples.

Results

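The genes described here encode the initiation and elongation factors of translation and the proteins that regulate them. They were taken by name, as the protein-coding RefSeq genes of human assembly GRCh38 whose symbol begins with EIF or EEF followed by a digit. This rule found 70 genes among 19719 protein-coding genes with a known strand, and the 70 genes had 69 distinct 5′ ends, because EEF1AKMT4 and the readthrough record EEF1AKMT4-ECE2 share a start. To find the genes that a complex of PRMT6, PARP1 and the ubiquitin ligase CRL4B may control, the study used antibodies against PRMT6, an arginine methyltransferase, and PARP1, which attaches ADP-ribose to proteins, on chromatin of MDA-MB-231, a human cell line derived from triple-negative breast cancer. The labels name no treatment for either sample, and each antibody gave 1 library, so no value below has a replicate check and no test between the antibodies was made. Each library was deposited as a list of peaks, intervals where sequenced fragments piled up above the background, and the lists report no RNA or protein level.

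Translation starts when initiation factors load the initiator tRNA and the small ribosomal subunit onto the capped end of an mRNA and scan for the start codon. eIF2 carries the initiator tRNA, eIF2B recharges eIF2 with GTP, eIF3 holds the small subunit, and the eIF4 factors bind the cap and unwind the mRNA. Elongation factor eEF1A then delivers each aminoacyl-tRNA, and eEF2 moves the ribosome by a codon. Tumor cells depend on a high rate of protein synthesis, and several of these factors, such as the cap-binding protein eIF4E, are well-known points of control.

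The PRMT6 list held 9080 peaks and the PARP1 list 11651. Each peak carries a score given by the authors, between 3.09 and 55.45 for PRMT6 and between 3.02 and 84.97 for PARP1, which was used here to rank peaks within a list. Rank 1 is the highest score, and the percentile of a peak is the share of its list with a lower score, with ties counted in equal parts. Many peaks had exactly the smallest width of their list, 288 bp at 53.1% of PRMT6 peaks and 200 bp at 30.1% of PARP1 peaks. The lists do not give read depth.

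A gene was counted as having a promoter peak when at least 1 base of a peak fell inside the window of 3 kb upstream to 3 kb downstream of the record's 5′ end. Promoter peaks were more common at translation factor genes than at protein-coding genes as a whole. A PRMT6 promoter peak was found at 28 of the 70 genes (40.0%, 95% exact binomial interval 28.5% to 52.4%), against 18.3% of all protein-coding genes. A PARP1 promoter peak was found also at 28 genes (40.0%, 28.5% to 52.4%), against 22.5% of all genes. Peaks of both lists lay at 21 promoters (30%, 19.6% to 42.1%), against 13.4% of all genes. A PRMT6 peak that overlapped a PARP1 peak lay at the same 21 promoters (30%), against 12.9% of all genes. Overlap was usual at any gene with both peaks: 2637 of all genes had both, and 2544 had such an overlap. The lower bound of each of these intervals lay above the share over all genes, though the intervals treat genes as independent and cover counting error only. A further 7 genes had a PRMT6 peak only and 7 had a PARP1 peak only, which left 35 genes with neither.

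Each list had a promoter peak at 28 of these genes and 21 were common, so the shared part is the same from either side. Of the 28 genes with a PRMT6 promoter peak, 75% (55.1% to 89.3%) also had a PARP1 promoter peak, beside 73.3% over all genes. Read from the PARP1 side, 75% (55.1% to 89.3%) also had a PRMT6 peak, beside 59.5% over all genes. The intervals of both shares hold the share over all genes.

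By symbol, the EEF genes were counted more often with PRMT6 and the EIF genes with PARP1, without a separation of their intervals. Among the 56 genes with an EIF symbol, 19 (33.9%, 21.8% to 47.8%) had a PRMT6 peak and 23 (41.1%, 28.1% to 55.0%) had a PARP1 peak. Among the 14 genes with an EEF symbol, 9 (64.3%, 35.1% to 87.2%) had a PRMT6 peak and 5 (35.7%, 12.8% to 64.9%) had a PARP1 peak, and each of these 5 had both. The 4 EEF genes with a PRMT6 peak alone include the pair of records with the same start. The intervals of the EIF and EEF shares overlap for both antibodies. Over all genes the shares were 18.3% for PRMT6 and 22.5% for PARP1. The interval of the EEF genes for PARP1 holds the latter, so that share is not set apart from all genes. The other intervals lie above the share over all genes.

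**Figure D1:**
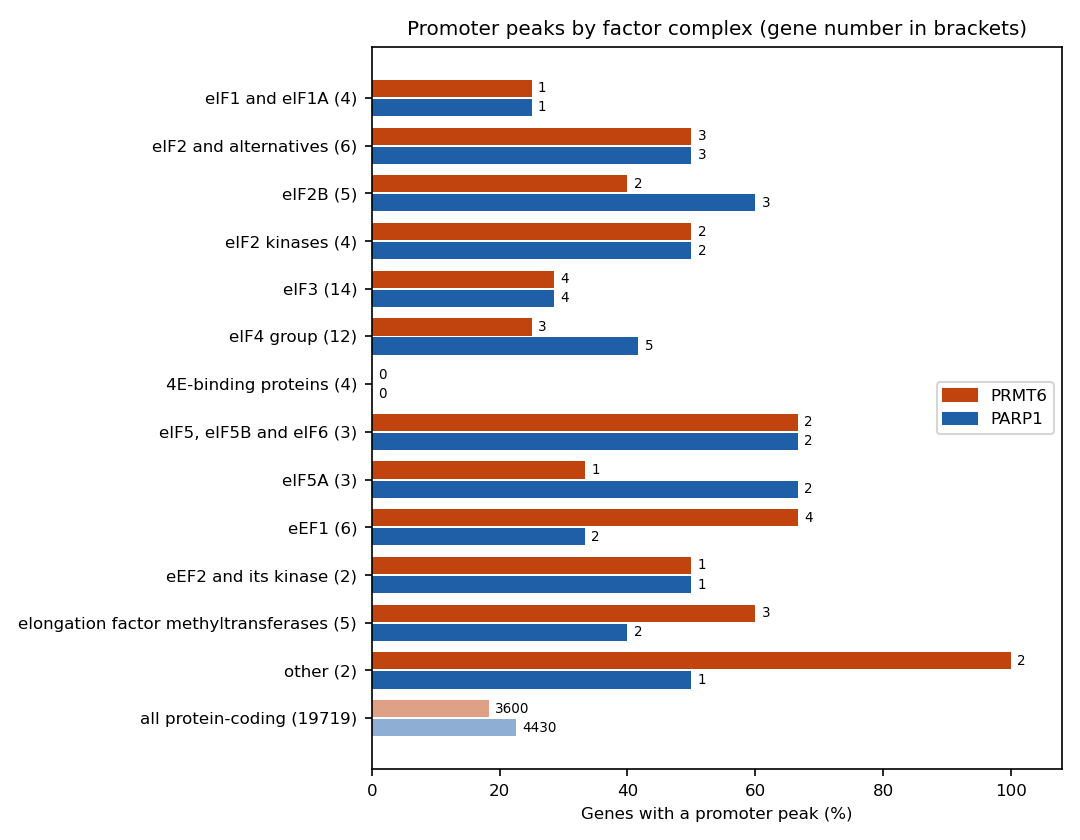
Share of genes with a promoter peak in each factor complex (horizontal axis, percent; number of genes of the complex in brackets), for PRMT6 (orange) and PARP1 (blue), with the count of genes at the end of each bar and all 19719 protein-coding genes in pale bars at the bottom. The 4E-binding proteins had no peak among 4 genes, and eIF3 had 4 of 14 in each list.

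The strongest promoters are shown first, because the peaks of both lists lay on them with high scores. The sequences below run from 220 bases before to 30 bases after the start site and are those of RefSeq (GRCh38.p14), written 5′ to 3′ along the gene's strand. They belong to the 6 genes with the best mean percentile over both lists that have an entry in the RefSeq promoter table. EEF2KMT ranks among them and has no entry. Capitals mark, on either strand, the word CCAAT, the GC-box word GGGCGG and the E-box word CACGTG, which are among 8 words searched. The windows are chr17:41688665-41688914 (plus strand) for EIF1, chr11:62573862-62574111 (minus) for EEF1G, chr12:53006236-53006485 (plus) for EIF4B, chr11:10808897-10809146 (minus) for EIF4G2, chr17:7572605-7572854 (plus) for EIF4A1 and chr17:7307408-7307657 (plus) for EIF5A.
EIF1: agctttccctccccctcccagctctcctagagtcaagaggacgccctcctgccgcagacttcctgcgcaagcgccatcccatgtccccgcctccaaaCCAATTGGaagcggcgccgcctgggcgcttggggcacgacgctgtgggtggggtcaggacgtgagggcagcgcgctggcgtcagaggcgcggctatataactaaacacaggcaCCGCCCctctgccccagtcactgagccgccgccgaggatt
EEF1G: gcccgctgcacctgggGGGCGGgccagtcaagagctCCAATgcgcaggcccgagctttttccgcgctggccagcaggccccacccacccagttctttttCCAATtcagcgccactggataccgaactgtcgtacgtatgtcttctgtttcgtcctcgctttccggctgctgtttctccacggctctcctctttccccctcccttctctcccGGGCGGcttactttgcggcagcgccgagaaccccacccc
EIF4B: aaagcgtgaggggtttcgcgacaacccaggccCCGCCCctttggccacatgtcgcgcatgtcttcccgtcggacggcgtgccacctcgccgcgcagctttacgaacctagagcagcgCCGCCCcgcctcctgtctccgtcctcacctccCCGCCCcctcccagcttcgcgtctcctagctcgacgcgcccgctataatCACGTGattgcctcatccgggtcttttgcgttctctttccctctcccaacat
EIF4G2: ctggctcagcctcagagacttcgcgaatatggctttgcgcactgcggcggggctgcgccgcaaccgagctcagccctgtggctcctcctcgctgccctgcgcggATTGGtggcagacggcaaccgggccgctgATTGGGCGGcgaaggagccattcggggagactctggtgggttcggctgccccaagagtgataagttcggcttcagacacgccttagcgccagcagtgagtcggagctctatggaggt
EIF4A1: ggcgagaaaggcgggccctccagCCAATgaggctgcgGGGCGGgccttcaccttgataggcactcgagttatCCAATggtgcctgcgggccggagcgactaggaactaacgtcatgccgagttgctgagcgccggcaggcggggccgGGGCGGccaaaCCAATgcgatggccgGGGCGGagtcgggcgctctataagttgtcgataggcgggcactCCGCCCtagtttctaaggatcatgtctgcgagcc
EIF5A: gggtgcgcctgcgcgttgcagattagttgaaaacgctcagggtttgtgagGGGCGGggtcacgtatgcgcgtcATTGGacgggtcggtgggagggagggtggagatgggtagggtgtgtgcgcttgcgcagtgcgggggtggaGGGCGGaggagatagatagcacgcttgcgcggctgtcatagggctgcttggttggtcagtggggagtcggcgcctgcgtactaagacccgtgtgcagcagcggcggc
The whole window lay under both peaks at EIF1, EEF1G and EIF4G2. At EIF4B all 250 bases lay under the PRMT6 peak and 180 under the PARP1 peak, and at EIF4A1 the numbers were 250 and 187. For EIF5A the window belongs to a RefSeq start 629 bp downstream of the record's 5′ end, a start chosen after the peaks were seen, and 248 and 156 of its bases lay under the peaks. All 6 windows held GGGCGG, and 5 of them held CCAAT, the exception being EIF4B, which held CACGTG. The 6 genes were picked by peak percentile, so these counts describe the printed windows only. In a longer stretch around the start, GGGCGG was in 75.9% and CCAAT in 49.7% of all 2256 genes with both peaks and a sequence.

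eIF1 and eIF1A keep the scanning ribosome open until the start codon is met. EIF1 had the best mean percentile of all 21 genes with both peaks, 96.4. Its PRMT6 peak (chr17:41688551-41689042, score 16.36) ranked 274 and its PARP1 peak (chr17:41688543-41689051, score 16.48) ranked 491, and the centres of the peaks were 0.5 bp apart. Both peaks span the 5′ end. A second pair of overlapping peaks began 304 bp (PRMT6, rank 661) and 417 bp (PARP1, rank 2687) downstream, so that EIF1 alone among the 70 genes had 2 promoter peaks in each list. The paralogue EIF1B and the eIF1A genes EIF1AX and EIF1AY had no promoter peak. EIF1AY lies on chromosome Y, with its nearest peak 8827906 bp away. Whether these cells carry that gene is not shown by the data used here. Its missing peak cannot be interpreted, though it stays in the counts.

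eIF2 is the trimer that brings the initiator tRNA. EIF2S1, which encodes its alpha subunit, the one that stress kinases phosphorylate, had overlapping peaks of rank 2871 (PRMT6, chr14:67359683-67360233) and rank 6116 (PARP1, chr14:67359896-67360154). They ended 95 and 174 bp upstream of the 5′ end, and their centres were nearer to ATP6V1D, which starts 524 bp away on the opposite strand. EIF2S3, for the gamma subunit, had 2 PARP1 peaks, the better at rank 3937, and no PRMT6 peak. EIF2S2, for the beta subunit, and EIF2S3B, a paralogue of EIF2S3, had neither. The 3 subunits of eIF2 thus had 3 different states. Of the factors that can stand in for eIF2, EIF2A had both peaks, with unequal standing: the PRMT6 peak (chr3:150546325-150546910) ranked 1656, at percentile 81.6, and the PARP1 peak (chr3:150546367-150546807) ranked 10178, at percentile 11.8. Both cover the stretch between the starts of EIF2A and SERP1, which are 291 bp apart and oppositely transcribed. The centres of both peaks were nearer to SERP1. EIF2D had a PRMT6 peak alone, at rank 2287.

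eIF2B exchanges the guanine nucleotide of eIF2 and has 5 different subunits. Peaks were found at the genes of the 3 regulatory subunits and not at those of the catalytic subunits, EIF2B3 (gamma) and EIF2B5 (epsilon). EIF2B4 (delta) had a PRMT6 peak of rank 803 (chr2:27370143-27370619) and a PARP1 peak of rank 4563 (chr2:27370246-27370523), both spanning the 5′ end. EIF2B2 (beta) had peaks of rank 1543 (PRMT6, chr14:75002443-75002740) and rank 4563 (PARP1, chr14:75002676-75002928). In both genes the PRMT6 peak stood higher in its list, at percentiles 91.1 and 82.8, than the PARP1 peak, at 60.6 in each. EIF2B1 (alpha) had a PARP1 peak alone, of rank 4365, whose centre was nearer to GTF2H3. With 5 genes in all, the split by subunit class is a description.

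The 4 kinases that phosphorylate eIF2 in the integrated stress response showed 4 different states. EIF2AK3 (PERK, which senses unfolded protein in the endoplasmic reticulum) had both peaks, EIF2AK2 (PKR, which senses double-stranded RNA) a PRMT6 peak alone, EIF2AK4 (GCN2, which senses amino acid shortage) a PARP1 peak alone, and EIF2AK1 (HRI, which senses heme shortage) neither. The peaks at EIF2AK3 were the widest of all promoter peaks of the 70 genes in each list, 636 bp for PRMT6 (chr2:88627455-88628091, rank 2628) and 746 bp for PARP1 (chr2:88627429-88628175, rank 489). The PRMT6 peak began 54 bp downstream of the record's 5′ end and the PARP1 peak 30 bp upstream, and the start site that the RefSeq promoter table gives, 681 bp downstream, is under both. The PARP1 peak at EIF2AK4 ranked 3323. The PRMT6 peak at EIF2AK2 ranked 8745, at percentile 1.9, and had the smallest width, the weakest of all member peaks in that list.

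eIF3 is the largest initiation factor and the complex with the most genes. Of its 14 genes, 4 (28.6%, 8.39% to 58.1%) had a PRMT6 peak, 4 a PARP1 peak, and 3 (21.4%, 4.66% to 50.8%) both, beside 18.3%, 22.5% and 13.4% of all genes, which lie inside these intervals. EIF3D, whose product can bind the cap itself, had peaks of rank 2674 (PRMT6, chr22:36529146-36529579) and 2482 (PARP1, chr22:36529125-36529573) across its 5′ end. EIF3M had a PRMT6 peak of rank 1986 (chr11:32583757-32584054) and a PARP1 peak of rank 3937 (chr11:32583464-32583787) whose centres were 280 bp apart, the largest gap among the 21 genes. EIF3H had peaks of rank 6841 (PRMT6, chr8:116766308-116766722) and rank 3016 (PARP1, chr8:116766185-116766508) around its 5′ end, which is 150 bp from that of UTP23 on the opposite strand, and the PRMT6 peak was nearer to UTP23. EIF3J, a loosely bound subunit, had a PRMT6 peak of rank 1604 only, and EIF3E a PARP1 peak of rank 10442 only. No promoter peak was listed at EIF3A, EIF3B, EIF3C, EIF3CL, EIF3F, EIF3G, EIF3I, EIF3K or EIF3L, which include the scaffold subunits EIF3A and EIF3B. EIF3C and EIF3CL are near-identical copies, so the status of each is uncertain.

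Of the 12 eIF4 genes, 3 had both peaks, and these encode a helicase, its stimulator and a scaffold but not the cap-binding protein. EIF4B, which stimulates the helicase, had the best PRMT6 peak of all 70 genes, of rank 118 (chr12:53006065-53006507, score 20.73), and a PARP1 peak of rank 1465 (chr12:53006035-53006415, score 11.40). EIF4A1, the helicase, had peaks of rank 490 (PRMT6, chr17:7572368-7572937, score 13.45) and 1266 (PARP1, chr17:7572455-7572791, score 11.92). EIF4G2, a scaffold related to eIF4G that lacks the part binding eIF4E, had peaks of rank 612 (PRMT6, chr11:10808856-10809214, score 12.37) and 1056 (PARP1, chr11:10808799-10809235, score 12.74). All 3 genes were above percentile 87 in both lists. EIF4E had 2 PARP1 peaks, both of rank 6696, and no PRMT6 peak. EIF4E2, which encodes a cap-binding repressor, had a PARP1 peak of rank 7034 and of the smallest width, nearer to TIGD1. EIF4A2, EIF4A3 (the helicase of the exon junction complex), EIF4E1B, EIF4E3, EIF4G1, EIF4G3 and EIF4H had no promoter peak. The proteins that bind eIF4E and keep it from eIF4G had none either: EIF4EBP1, EIF4EBP2, EIF4EBP3 and EIF4ENIF1 were 0 of 4 in both lists. This allows a share of up to 60.2% by the exact interval. The shares over all genes, 18.3% for PRMT6 and 22.5% for PARP1, lie inside that interval.

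The last steps of initiation hydrolyse the GTP of eIF2 and join the large ribosomal subunit. EIF5, which makes eIF2 hydrolyse its GTP, had a PRMT6 peak of rank 466 (chr14:103333828-103334334) and a PARP1 peak of rank 7221 (chr14:103333878-103334160), at percentiles 94.8 and 37.8. EIF5B, which joins the ribosomal subunits, had a peak pair of rank 2674 (PRMT6, chr2:99336238-99336708) and 5671 (PARP1, chr2:99336495-99336757) that ended 681 and 632 bp upstream and was nearer to TXNDC9. A weaker PARP1 peak of rank 10414 spanned its own 5′ end. EIF6, which keeps the large subunit from joining early, had no promoter peak. EIF5A, the hypusine-bearing factor that helps ribosomes through proline stretches, had peaks of rank 866 (PRMT6, chr17:7307066-7307655, score 10.95) and 851 (PARP1, chr17:7307171-7307563, score 13.86). They began 67 and 172 bp downstream of the record's 5′ end, where RefSeq lists 6 start sites for the gene. Its paralogue EIF5A2 had only a PARP1 peak of rank 10178, 927 bp upstream, and EIF5AL1 had none.

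Of the 6 eEF1 genes, 4 (66.7%, 22.3% to 95.7%) had a PRMT6 peak, beside 18.3% of all genes. A PARP1 peak lay at 2 (33.3%, 4.33% to 77.7%), beside 22.5% of all genes, which lies inside this interval. With 6 genes in all, these shares are a description. EEF1G, the gamma subunit of the exchange complex, had the best PARP1 peak of all 70 genes, of rank 253 (chr11:62573621-62574206, score 20.23), and a PRMT6 peak of rank 570 (chr11:62573756-62574234, score 12.76). EEF1A1, the common form of eEF1A, had peaks of rank 1868 (PRMT6, chr6:73521070-73521489) and 1522 (PARP1, chr6:73521011-73521599) just upstream of or across its 5′ end. EEF1B2, the beta subunit, and EEF1E1, a component of the tRNA synthetase complex, had PRMT6 peaks alone, of ranks 5718 and 6841, both of the smallest width. EEF1A2, the form of muscle and neurons, and EEF1D, the delta subunit, had no promoter peak. For eEF2 the gene and its kinase were split: EEF2 had no peak within 14052 bp, while EEF2K, the kinase that inhibits it, had peaks of rank 4181 (PRMT6, chr16:22206021-22206473) and 3109 (PARP1, chr16:22206005-22206286) across its 5′ end.

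The enzymes that methylate lysines of the elongation factors gave a gene of high standing in both lists. EEF2KMT, which modifies eEF2, had peaks of rank 606 (PRMT6, chr16:5097826-5098354, score 12.43) and 807 (PARP1, chr16:5097890-5098374, score 14.10), at percentiles 93.3 and 93.1. EEF1AKMT3, which modifies eEF1A, had peaks of rank 7963 (PRMT6, chr12:57772128-57772416) and 2210 (PARP1, chr12:57772220-57772480) nearer to METTL1, 509 bp away. EEF1AKMT4 and EEF1AKMT4-ECE2 share a PRMT6 peak of rank 2348 that begins 586 bp downstream, and EEF1AKMT1 and EEF1AKMT2 had no promoter peak. EIF1AD, an eIF1A-like protein, had peaks of rank 1588 (PRMT6, chr11:66002126-66002588) and 3148 (PARP1, chr11:66002219-66002505), nearer to BANF1.

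**Figure D2:**
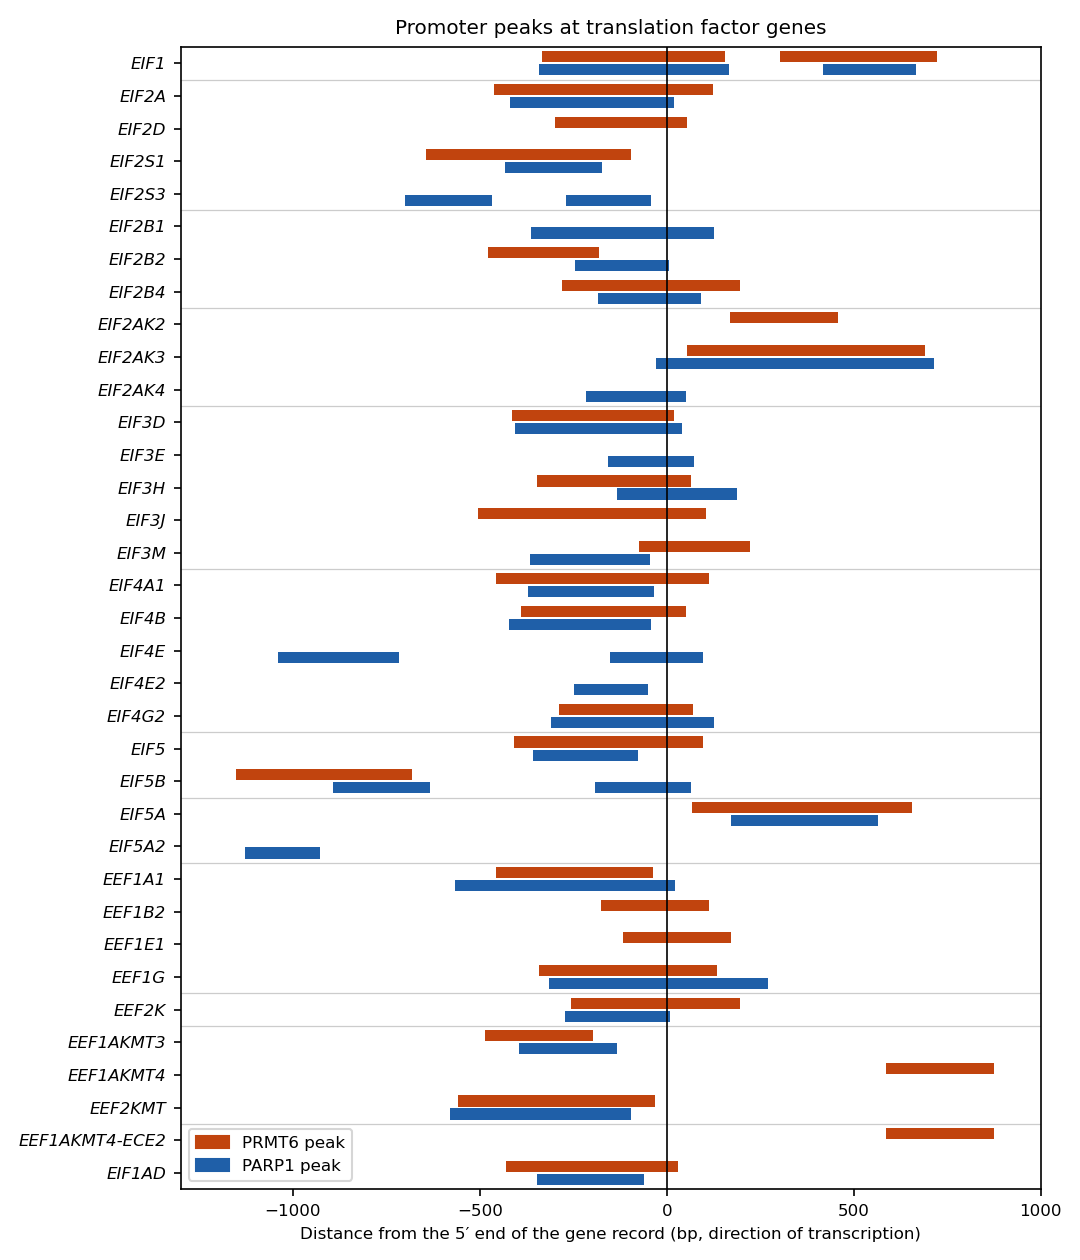
Promoter peaks at the 35 translation factor genes with at least 1 peak, as bars from start to end against the distance from the 5′ end of the gene record (horizontal axis, bp, negative upstream), PRMT6 in orange and PARP1 in blue, with grey lines between complexes. Most bars touch or lie just upstream of 0, while the peaks of EIF5A, EIF2AK2 and EEF1AKMT4, the PRMT6 peak of EIF2AK3 and the second pair of EIF1 lie wholly downstream, and the PARP1 peak of EIF5A2 lies 927 bp upstream.

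Promoter peaks stood close to the start. The best peak of each gene spanned the 5′ end at 17 of 28 genes for PRMT6 (60.7%, beside 55.2% of all genes with a peak) and at 15 of 28 for PARP1 (53.6%, beside 44.7%). Its centre lay within 500 bp of the 5′ end at 25 of 28 genes in each list (89.3%), beside 78.4% for PRMT6 and 78.1% for PARP1 over all genes. Where a gene had both peaks, the best peaks overlapped at all 21 genes, and the median gap between their centres was 42.0 bp, beside 58.0 bp over all genes. The share of overlapping best peaks was not computed over all genes. No member had a peak near the edge of the window. The farthest best peaks inside it lay 681 bp (PRMT6, EIF5B) and 927 bp (PARP1, EIF5A2) from the 5′ end, and the nearest outside lay 4677 and 4796 bp upstream of EIF3L.

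At the median, the best peaks also stood somewhat higher in their lists than those of all genes with a promoter peak. The median percentile was 78.6 for PRMT6, beside 71.8 over all genes with a PRMT6 promoter peak, and 72.1 for PARP1, beside 62.1. The highest-scoring 10% of the PRMT6 list held the best peak of 9 of 28 genes (32.1%, beside 19.8% of all), and for PARP1 it held 6 of 28 (21.4%, beside 14.9%). No interval was computed for these medians and shares, which rest on few genes. Both peaks were above percentile 90 at EIF1, EEF1G, EEF2KMT, EIF4G2 and EIF5A. Among the 21 genes with both, the PRMT6 percentile was the higher at 13 (61.9%, beside 56.9% over all 2637 such genes), with a median difference of 2.30 points, beside 1.98. EIF2A and EIF5 leaned to PRMT6 by the most, and EEF1AKMT3 and EIF3H to PARP1.

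**Figure D3:**
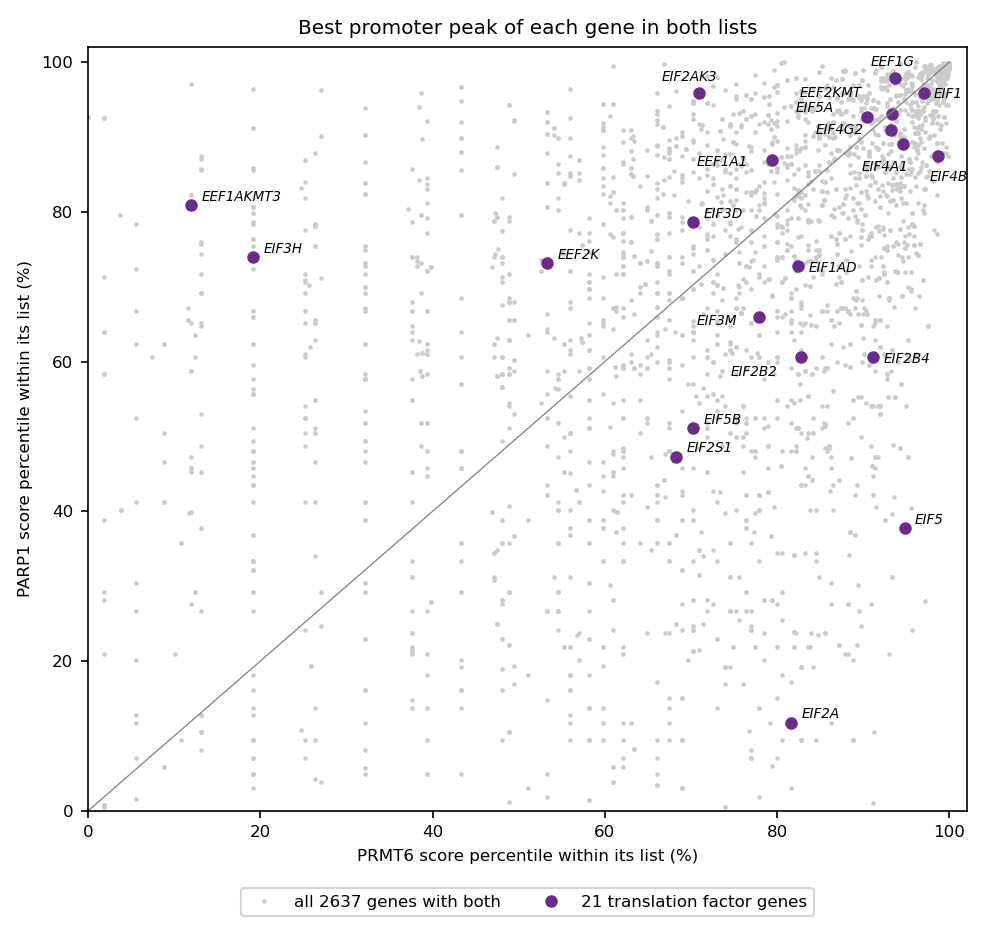
Score percentile of the best promoter peak within the PRMT6 list (horizontal axis, %) against that within the PARP1 list (vertical axis, %), for the 21 translation factor genes with both (purple, named) and all 2637 protein-coding genes with both (grey), with a line where the percentiles are equal. EIF1, EEF1G, EEF2KMT, EIF4G2 and EIF5A sit above 90 on both axes, and EIF2A at 81.6 and 11.8 lies far below the line.

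Genes with a peak in a single list had lower-ranked peaks at the median. For PRMT6 the median percentile was 82.4 at the 21 genes with both and 73.9 at the 7 with PRMT6 alone, and for PARP1 it was 78.6 and 42.2. Over all genes the medians were 78.5 and 48.9 for PRMT6 and 74.6 and 42.2 for PARP1. Of the 7 genes with PRMT6 alone, 5 had a best peak of the smallest width (71.4%), against 1 of the 21 with both (4.76%). Over all genes these shares were 54.7% and 17.7%. EEF1AKMT4 and EEF1AKMT4-ECE2 share 1 of these peaks, which counts for 2 of the 5 and 2 of the 7 and is also the median of 73.9.

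Many translation factor genes begin beside an oppositely transcribed gene, where a peak cannot be assigned to either. A divergent gene started within 1 kb at 21 of the 70 genes, and of these 11 (52.4%) had a PRMT6 peak, 9 (42.9%) a PARP1 peak and 7 (33.3%) both. The shares over all 3750 genes with such a neighbour were 32.3%, 39.5% and 24.9%. Among the 49 genes without a divergent neighbour, 17 (34.7%) had a PRMT6 peak, 19 (38.8%) a PARP1 peak and 14 (28.6%) both, beside 15.0%, 18.5% and 10.7% over all genes without one. The members' shares were thus above those of all genes in both classes, but no interval was computed for them. The excess was smallest for PARP1 beside a divergent gene, where 42.9% stood near the 39.5% of all genes. EEF1AKMT4 and EEF1AKMT4-ECE2, which share a start, are counted separately among the 21 and the 11. The best peak was nearer to the member's own 5′ end than to that of any other protein-coding gene at 22 of 28 genes for PRMT6 and 21 of 28 for PARP1. Counting any promoter peak by this rule lowered the members' share from 40.0% to 31.4% in each list. Over all genes the share fell from 18.3% to 15.3% for PRMT6 and from 22.5% to 19.0% for PARP1.

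Promoter sequence was read from the 300 bases around the RefSeq start, which were given for 56 of the 70 genes and for 15842 of all 19719. Among the 56, EEF1AKMT4 and EEF1AKMT4-ECE2 have the same promoter. CpG observed over expected, a measure of how far a promoter keeps its CG pairs, had a median of 0.891 over these 56 promoters and 0.761 over all. It was 0.911 at the 18 members with both peaks, beside 0.849 over all genes with both, and 0.869 at the 31 members with a peak of either list, which is below the 0.891 of all 56. In the upper tertile of all promoters by this measure, which held 34 of the 56 members, 15 (44.1%) had a PRMT6 peak, 15 (44.1%) a PARP1 peak and 13 (38.2%) both, beside 27.0%, 33.2% and 19.6% of all genes there. The middle tertile held 20 members, of which 9 (45.0%) had a PRMT6 peak, 8 (40.0%) a PARP1 peak and 4 (20.0%) both, beside 24.7%, 29.3% and 18.8%. There the share with both stood near that of all genes. The part that CpG content has in the higher shares was not tested.

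Short sequence words were counted on both strands of the same 300 bases. The CCAAT word, the core of the site that NF-Y binds, was in 23 of 56 members' promoters (41.1%, beside 36.4% of all promoters), in 19 of the 31 with a peak of either list (61.3%, beside 43.9%) and in 12 of the 18 with both (66.7%, beside 49.7%). It was held by EIF1, EIF4A1, EIF4G2, EIF5, EIF5A, EIF2A, EIF2B2, EIF2B4, EIF2AK3, EIF3D, EIF3M and EEF1G. GGGCGG, the core of the Sp1 site, was in 44 members (78.6%, beside 58.3%) and in 13 of the 18 with both (72.2%, beside 75.9%). The palindrome CACGTG, the E-box that MYC and the clock proteins can bind, was in 15 members (26.8%, beside 8.82%). It was in 7 of the 31 with a peak of either list (22.6%, beside 10.2%). Of the 18 with both, 2 held it, EIF4B and EEF2K (11.1%, beside 10.8%). The shared promoter of EEF1AKMT4 and EEF1AKMT4-ECE2 counts for 2 of the 15 and 2 of the 7. CCGGAAG, an ETS word, was in 14 members (25%, beside 14.2%) and in 5 of the 18 (27.8%, beside 19.0%). TATAAA was in 3 members (5.36%, beside 9.75%), TGACGTCA in 1 (1.79%, beside 2.56%), GCGCATGC in 2 (3.57%, beside 4.28%) and AAGATGGC in 4 (7.14%, beside 3.86%). Some words can share letters, as CCGGAAG does with the start of AAGATGGC and CCAAT with its own reverse complement in the EIF1 promoter printed above. The same counts for genes without a peak are void, since only 25 of those 35 members (71.4%) had a sequence. A match is a description of the letters and does not show a bound factor.

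Of the 35 genes without a promoter peak, 5 had a peak within 10 kb of the 5′ end. The nearest PRMT6 peak lay at a median distance of 51227 bp and the nearest PARP1 peak at 43989 bp. These values were not computed over all genes without a promoter peak, so whether they are unusual is not known. EIF3L had the overlapping pair 4677 bp (PRMT6, rank 2287) and 4796 bp (PARP1, rank 907) upstream, on the microRNA gene MIR658. EIF4EBP3 had a PRMT6 peak 6861 bp away (rank 6841), EIF4E1B had a PRMT6 peak 7273 bp downstream (rank 5718), and EEF1AKMT2 had a PARP1 peak at 5115 bp (rank 7686) and a PRMT6 peak at 9830 bp (rank 6841). EIF4G1, the main scaffold of the cap-binding complex, had a PRMT6 peak of rank 1358 that began 5370 bp downstream of the record's 5′ end and covered another RefSeq start, 5657 bp downstream.

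EIF4G1 also held the highest-ranked peaks inside any of the 70 gene records. Near its 3′ end lay a PRMT6 peak of rank 107 (chr3:184334381-184335016) and a PARP1 peak of rank 71 (chr3:184334481-184334953), which overlap and lie 910 and 973 bp from the 5′ end of FAM131A. A like pair lay beyond the 3′ end of EIF4A1, 6436 bp (PRMT6, rank 1221) and 6445 bp (PARP1, rank 382) downstream of its start, at the 5′ end of CD68. The PARP1 peak there ranked above the one at the EIF4A1 promoter, which ranked 1266. Both pairs are thus nearer to the start of a neighbour than to that of the translation factor gene.

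**Figure D4:**
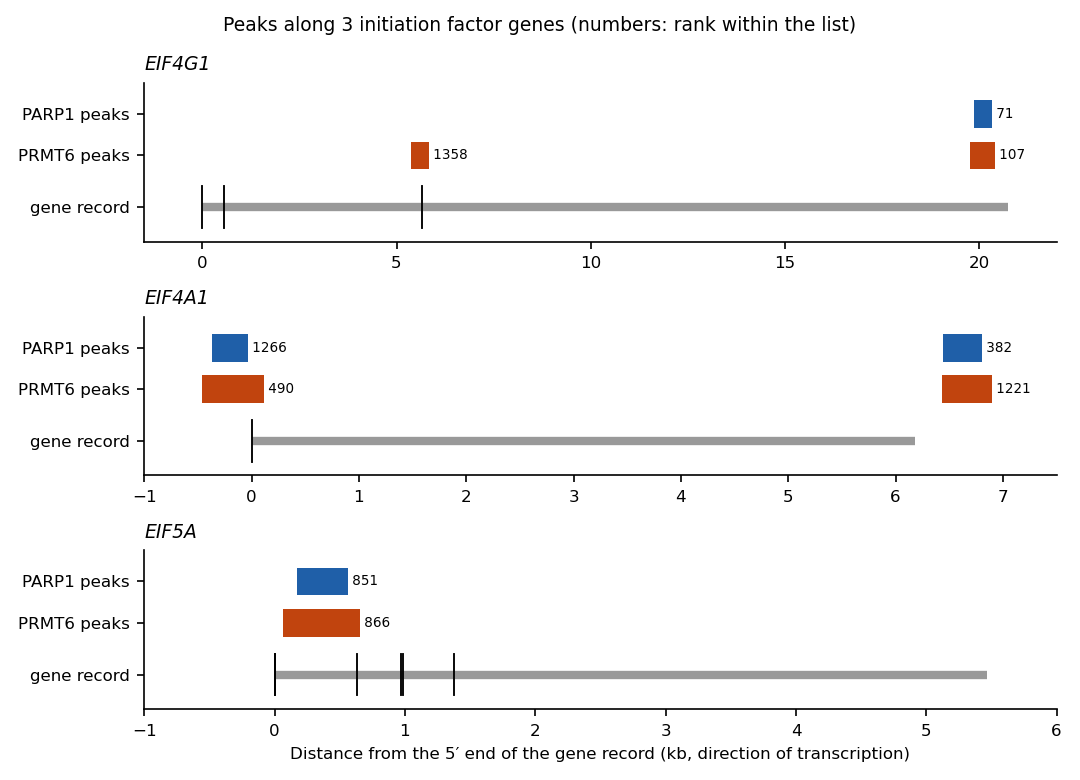
Peaks along EIF4G1, EIF4A1 and EIF5A, as boxes with their rank in the list, above the gene record (grey bar) and its RefSeq start sites (black ticks), against the distance from the record's 5′ end (horizontal axis, kb, along transcription). EIF4G1 has no peak at its first start and the pair of rank 107 and 71 near its 3′ end, EIF4A1 has a pair at its start and another past its end, and the EIF5A pair lies downstream of its first start, with the PRMT6 peak over a later one.

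Other genes of translation were read in the same way from a list of 29 that the symbol rule does not reach. Of these, 14 (48.3%) had a PRMT6 promoter peak, 12 (41.4%) a PARP1 peak and 9 (31.0%) both, beside 18.3%, 22.5% and 13.4% of all genes. Genes with both included ETF1, the release factor that reads stop codons (ranks 803 and 1056 for PRMT6 and PARP1), and HBS1L, which rescues stalled ribosomes (2418 and 2370). PABPC1, the cytoplasmic poly(A)-binding protein, had ranks 545 and 2991, and its inhibitor PAIP2 had 1396 and 3016. DHX29, a helicase of scanning, had ranks 2121 and 7034. PPP1R15A, the stress-induced adaptor that brings the phosphatase to eIF2, had ranks 2905 and 1693, while its constitutive relative PPP1R15B had a PRMT6 peak alone (rank 1786). DHPS, which starts the hypusine modification of eIF5A, had ranks 1477 and 2910, and DOHH, which completes it, had no peak. EEFSEC, the selenocysteine elongation factor, had peaks of ranks 6841 and 6170 that did not overlap, and TUFM, the mitochondrial counterpart of eEF1A, had ranks 3884 and 4289. PRMT6 peaks alone were at DDX3X, LARP1, MKNK1 and MTIF3, and PARP1 peaks alone at ABCE1, DENR and MKNK2. GSPT1, GSPT2, PELO, PABPC4, PAIP1, MCTS1, PDCD4, TSFM, GFM1, GFM2 and MTIF2 had neither.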

How the data were processed

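Chromatin of MDA-MB-231 cells, for which the labels name no treatment, was profiled by CUT&Tag with 1 library for PRMT6 and 1 for PARP1. The labels also describe adaptor ligation to immunoprecipitated DNA, so the chemistry of the libraries is uncertain. The submitters' processing notes name CASAVA 1.4, Bowtie 0.12.8, MACS, MACS2 and hg19. The deposited lists give the position and a score of each peak, and the authors called peaks separately in each library. The score is not named as a p-value or a q-value, and its size was not compared between lists. Thresholds and any control library are not given in the sources used here. The deposited positions, printed as listed, fit GRCh38 and not hg19: 30.1% of PRMT6 and 29.5% of PARP1 peaks lay within 1 kb of a protein-coding 5′ end of GRCh38, and 4.07% and 4.00% did so with 5′ ends of GRCh37. The RefSeq records of GRCh38.p14 were therefore used, without 331 protein-coding records that have no strand.

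Overlap meant at least 1 shared bp. Counts were made with pandas 2.3.3 and numpy 2.4.6 in Python 3.11.15, exact binomial (Clopper-Pearson) intervals with scipy 1.17.1 and plots with matplotlib 3.10.9. The code was tested on simulated data. Promoter sequences (250 bases before and 50 after each start) are those of RefSeq, with the start nearest to the record's 5′ end. Every gene was named with its peak status, coordinates were given where both lists had a peak, and nearest peaks within 10 kb where neither had. Remarks on peaks inside or beyond the genes were added after their values were seen. The genes, lists and comparisons were chosen with earlier results of these data known. Alternatives changed the score, width, overlap, window and gene rules.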

Additional observations from a re-analysis of the deposited data

How the results depend on the processing

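The 4 counts of translation factor genes (with a PRMT6 peak, a PARP1 peak, both, or an overlap) were recomputed under 14 other settings, 4 of them chosen after seeing the data. Not every setting bears on all 4 counts, and 49 values resulted. Each stayed within 1.5 times the reported count, and the members' share was above that of all genes in 49 of 49. Some settings could barely move the counts, so the 49 values are not separate support. These left out the copies EIF3CL, EIF5AL1, EIF2S3B and EIF1AY, which had no promoter peak, moved each peak start by 1 bp, or dropped only EEF1AKMT4-ECE2. Counting only peaks whose nearest protein-coding 5′ end was the member's gave 22, 22, 15 and 15 genes. The higher-scoring 50% of each list gave 23, 21, 16 and 16, and leaving out peaks of the smallest width gave 22, 26, 20 and 20. Taking any RefSeq start of the gene added the PRMT6 peak at EIF4G1 and gave 29, 28, 21 and 21. No paired analysis was possible because PRMT6 and PARP1 are represented by 1 library each. The spread between libraries, and the depth behind a missing peak, could not be measured, so a gene without a peak is one that was not listed.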
